A study of Mus musculus with 111 samples.

Results

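The mean transcript level over the day was compared between mice that carried the histone H3.3 Q5A mutant and mice that carried a control virus, within cohort 1 alone. Cohort 1 held 78 of the 111 libraries of the series, while cohort 2 held 25 and cohort 3 held 8, and membership was taken from the cohort number in the sample labels. Each library came from the tuberomammillary nucleus (TMN) of an adult mouse (C57BL/6 in the labels, C57BL/6J in the study's methods) that had received an adeno-associated virus (AAV) into this region. The viruses expressed GFP alone (28 libraries), wild-type H3.3 (24 libraries) or H3.3 with glutamine 5 replaced by alanine (Q5A, 26 libraries), and the H3.3 vectors also carried GFP. GFP and H3.3 together formed the 52 control libraries. Tissue was collected at zeitgeber times ZT0, ZT4, ZT8, ZT12, ZT16 and ZT20, where ZT0 is lights on, with 4 or 5 libraries per virus and ZT. Every virus was added to mice that kept their own H3.3 genes. The labels used here give neither age nor sex, and no sequencing run. The replicates were separate libraries, and the p-values set a difference between viruses against the spread between libraries. They do not cover a factor shared by the libraries of 1 virus.

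H3.3 is the histone variant that is placed into chromatin outside DNA replication and therefore turns over in neurons. Its glutamine near the N-terminus can carry a monoamine such as histamine, next to the lysine that carries the H3K4 methyl mark of active promoters, and alanine at this position cannot accept one. The TMN holds the histamine neurons that promote wakefulness. A comparison pooled over all ZT asks whether the level of a transcript, as distinct from its rhythm, moved with the mutant.

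A row below is a deposited gene name with its read count. The counting option used in the study keeps reads that run in the direction of the named gene, whereas in stranded ligation kits of this type the first read usually runs against the transcript, so that a row can hold reads of a gene on the other strand. Between 3.49 and 4.82% of the uniquely placed reads fell in gene rows in these 78 libraries. Library totals over gene rows lay between 673306 and 1894491 reads, so that rows of few reads carry counting error beside the spread between animals. Hdc, the histamine-synthesising enzyme that defines the TMN neurons, had a median of 3 reads and was at 0 in 9 libraries, so the tissue label could not be checked from it. All 37 mitochondrially encoded rows held 0 reads. A clone-named row, RP23-355L10.3, stood far above the other libraries in 3 of them (GFP ZT12 replicate 3, H3.3 ZT12 replicate 1 and Q5A ZT20 replicate 3), and the count of changed rows is given with and without these libraries.

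Bc1, a short neuronal RNA of the cytoplasm transcribed by RNA polymerase III that represses translation near synapses, had the largest log2 difference of the rows that passed the test. Its sequence is shown because the libraries were made from polyadenylated RNA, while Bc1 carries runs of A inside it. The transcript is annotated on the plus strand of GRCm38 at chr7:144914470-144914637. Runs of at least 8 A are in capitals, at bases 77 to 99 (23 bases) and 120 to 128 (9 bases).

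Bc1: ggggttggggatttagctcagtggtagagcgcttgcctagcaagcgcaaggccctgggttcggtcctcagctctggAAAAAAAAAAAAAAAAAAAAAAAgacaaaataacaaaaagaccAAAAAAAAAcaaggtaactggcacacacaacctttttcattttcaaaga

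Bc1 resembles ID repeats that are spread over rodent genomes, so its counts are uncertain where reads could be placed at several sites. Which strand the reads of the Bc1 row came from was not tested, so the row may not measure Bc1 RNA.

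Of 11252 rows tested, 28 differed between Q5A and the pooled controls (edgeR quasi-likelihood test with ZT as a factor, adjusted p under 0.01), which is 0.249% of the rows tested. Of these, 25 were higher in Q5A (0.222%) and 3 were lower (0.0267%). The median log2 difference of all rows tested was 0.0045. Without the 3 libraries that stood apart, a choice made after the data were seen, 40 rows passed, among them all 28. Among all rows 1207 had an unadjusted p under 0.05.

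Srpk2, which encodes a kinase of the serine- and arginine-rich splicing factors (GRCm38 chr5:23503264-23684617, minus strand), had the smallest p. Its lowest, median and highest levels were 79.7, 111 and 167 CPM (counts scaled to the library size) in GFP, 94.6, 152 and 246 in H3.3, and 158, 188 and 242 in Q5A. The Q5A libraries lay above nearly all GFP libraries and overlapped the upper H3.3 libraries, with 1 GFP and 11 H3.3 libraries at or above the lowest Q5A library. All 26 Q5A libraries exceeded the control median at the same ZT. Such counts, here and for the rows below, are a description, since the rows were chosen in the same libraries. The mean levels were 116 ± 21.7 CPM (SD, n = 28) in GFP, 158 ± 41.5 (n = 24) in H3.3 and 194 ± 25.4 (n = 26) in Q5A. The log2 difference between Q5A and the pooled controls was 0.54 ± 0.08 (SE, edgeR adjusted p = 3.57e-06).

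Gm17275, a long intergenic noncoding RNA row on the plus strand (chr1:180802568-180809483), followed. Its lowest, median and highest levels were 80.9, 111 and 240.1 CPM in GFP, 89.0, 137 and 311 in H3.3, and 137, 203 and 292 in Q5A. The GFP and Q5A libraries overlapped in their extremes, where 2 GFP libraries and 12 H3.3 libraries reached the lowest Q5A library. The log2 difference was 0.63 ± 0.09 (SE, edgeR adjusted p = 1.05e-05). Ubxn8, which encodes a UBX-domain protein of the endoplasmic reticulum (chr8:33619586-33641967, minus strand), had lowest, median and highest levels of 120.5, 186 and 335 CPM in GFP, 136, 293 and 431 in H3.3, and 251, 346 and 526.2 in Q5A. Here 4 GFP and 13 H3.3 libraries reached the lowest Q5A library, and 25 of 26 Q5A libraries exceeded the control median at the same ZT. Its log2 difference was 0.61 ± 0.09 (SE, edgeR adjusted p = 1.37e-05).

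Bc1 had lowest, median and highest levels of 51.3, 154 and 669 CPM in GFP, 144, 285 and 809.8 in H3.3, and 279, 531 and 1046 in Q5A. The spread within each virus was wide, and 7 GFP and 12 H3.3 libraries reached the lowest Q5A library, while 24 of 26 Q5A libraries were above the control median at the same ZT. That median pools both control viruses. At ZT20 every H3.3 library (512.9 to 809.8 CPM) lay above every Q5A library (278.9 to 480.2 CPM). At ZT12 GFP replicates 1 and 2 (669 and 655 CPM) lay above every Q5A library (highest 636 CPM). The mean levels were 217 ± 169 CPM (SD, n = 28), 332 ± 183 (n = 24) and 567.7 ± 189.7 (n = 26). The log2 difference was 1.21 ± 0.18 (SE, edgeR adjusted p = 1.37e-05).

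**Figure D1:**
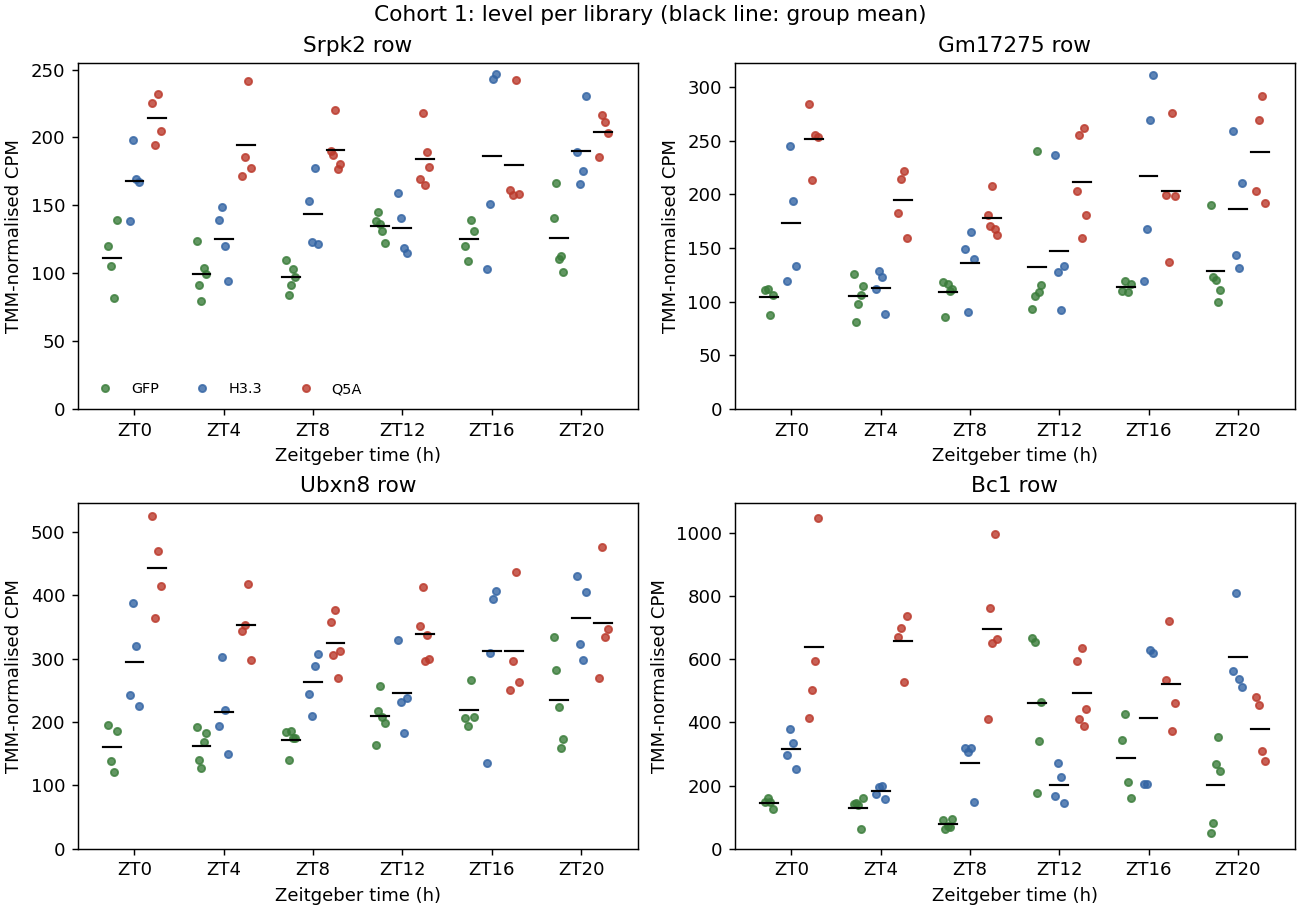
Level of Srpk2, Gm17275, Ubxn8 and Bc1 in each of the 78 cohort 1 libraries (y axis, CPM) by ZT (x axis, hours) and virus, with 1 point per library. Most Q5A points sit in the upper part of their ZT, and 26, 26, 25 and 24 of the 26 Q5A libraries lie above the control median at the same ZT for the 4 rows in that order. For Bc1 at ZT20 every H3.3 point lies above every Q5A point. The rows were chosen in these same libraries, so the counts are a description.

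The other higher rows are given by name, and most of them share exon bases with a gene on the other strand, as described below. Grpel1, a co-chaperone of the mitochondrial import motor, was 0.41 higher on the log2 scale (SE 0.07, edgeR adjusted p = 0.000425), Pdss1, which makes the isoprenoid tail of coenzyme Q, was 0.65 higher, and Slc25a26, the mitochondrial carrier of S-adenosylmethionine, was 0.40 higher. Emc4, a subunit of the membrane protein insertion complex of the endoplasmic reticulum, was 0.47 higher, and Etfrf1, a regulator of the electron transfer flavoprotein, was 0.37 higher. Srebf1, a transcription factor of lipid synthesis, was 0.49 higher from a mean of 20.2 CPM in GFP, 23.3 in H3.3 and 30.2 in Q5A.

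Further rows that rose were Sycp3, a protein of the meiotic chromosome axis (0.51), Nrd1, a metallopeptidase (0.42), Nox1, an NADPH oxidase (0.41), Txlng (0.54), Fam227b (0.65), Tmem255a (0.52), Gm17711 (0.68), Fbxl22, an F-box protein (0.47), Phyhipl (0.27), Phtf1os (0.32), Nkiras1, an inhibitor of NF-kappa-B signalling (0.27), and Ccdc152 (0.35). The clone-named rows RP23-273G23.2 (0.73) and RP24-80P9.3 (0.55) and 1 more clone-named row (0.51) also rose, and they have no position in the annotation used here. Mean levels of the 25 rows ran from 12.7 CPM in GFP for Fam227b to 2014 CPM in Q5A for Ccdc152. At least 21 of the 26 Q5A libraries lay above the control median at the same ZT in every one of the 25 rows. The 25 rows were chosen because Q5A exceeded these controls in these libraries, so the count adds no separate evidence.

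Of the 3 lower rows, Pisd-ps1, a pseudogene copy of phosphatidylserine decarboxylase whose reads may be shared with near-identical copies, had lowest, median and highest levels of 3.3, 9.8 and 21.6 CPM in GFP, 3.9, 9.1 and 18.1 in H3.3, and 1.5, 6.1 and 11.7 in Q5A. The 3 ranges overlapped widely, and the log2 difference was -0.66 ± 0.14 (SE, edgeR adjusted p = 0.00359). Pus10, a pseudouridine synthase, had levels of 22.1, 32.4 and 44.1 CPM in GFP, 18.9, 30.6 and 44.4 in H3.3, and 17.7, 23.2 and 34.7 in Q5A, in the same order. Most Q5A libraries lay low in the control range, and 4 of 26 exceeded the control median at the same ZT (log2 difference -0.35 ± 0.08, edgeR adjusted p = 0.00723). RP23-371A16.2 had medians of 300.2 CPM in GFP, 246 in H3.3 and 204 in Q5A, with 5 of 26 Q5A libraries above the control median at the same ZT (log2 difference -0.43 ± 0.09, edgeR adjusted p = 0.00849).

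At the threshold itself, Nkiras1 and Ccdc152 were the last rows inside (edgeR adjusted p = 0.00977 for both). RP23-474B13.2 was the first outside, with a log2 difference of 1.04 ± 0.23 (edgeR adjusted p = 0.0108), followed by Fam208b with 0.35 ± 0.08 (edgeR adjusted p = 0.0111).

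The controls consisted of both viruses, and their levels were therefore separated in a fit with 3 viruses, whose contrasts share libraries. Between Q5A and GFP 81 rows passed (0.72% of the rows tested), of which 66 were higher (0.587%) and 15 lower (0.133%), among them all 28. Between H3.3 and GFP 12 rows passed, all higher in H3.3 (0.107%), 6 of which are among the 28. Between Q5A and H3.3, the control that differs from the mutant in 1 residue, 0 rows passed (0.0%) with edgeR and 0 with DESeq2, while 718 had an unadjusted p under 0.05. For Srpk2 the log2 difference was 0.76 ± 0.07 between Q5A and GFP (edgeR adjusted p = 2.60e-12), 0.32 ± 0.08 between Q5A and H3.3 (adjusted p = 0.359) and 0.44 ± 0.08 between H3.3 and GFP (adjusted p = 0.000463). The H3.3 level of Srpk2 thus lay between those of GFP and Q5A.

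Bc1 was 1.57 ± 0.21 higher in Q5A than in GFP on the log2 scale (edgeR adjusted p = 6.58e-08) and 0.88 ± 0.21 higher than in H3.3 (adjusted p = 0.359), and its difference between H3.3 and GFP was 0.70 ± 0.21 (adjusted p = 0.193). Ubxn8 was 0.54 ± 0.09 higher in H3.3 than in GFP (edgeR adjusted p = 0.000463), and Gm17275 had a difference of 0.46 ± 0.10 there (adjusted p = 0.0162). Against H3.3, the Q5A libraries differed by 0.35 ± 0.09 for Ubxn8 (edgeR adjusted p = 0.467) and 0.40 ± 0.10 for Gm17275 (adjusted p = 0.442). Over the 25 higher rows the median log2 difference was 0.69 between Q5A and GFP, 0.32 between Q5A and H3.3 and 0.37 between H3.3 and GFP, beside medians of 0.0066, 0.0047 and -0.0026 over all rows tested. These medians describe rows chosen in a contrast that holds the same libraries. The other rows that passed between H3.3 and GFP included AC118698.3 (0.73), Kdm1b, a demethylase of H3K4 (0.47), and Kif2a, a kinesin. Outside the 28, Kxd1 was the third row by p between Q5A and H3.3, with a log2 difference of -0.30 ± 0.07 (edgeR adjusted p = 0.359).

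**Figure D2:**
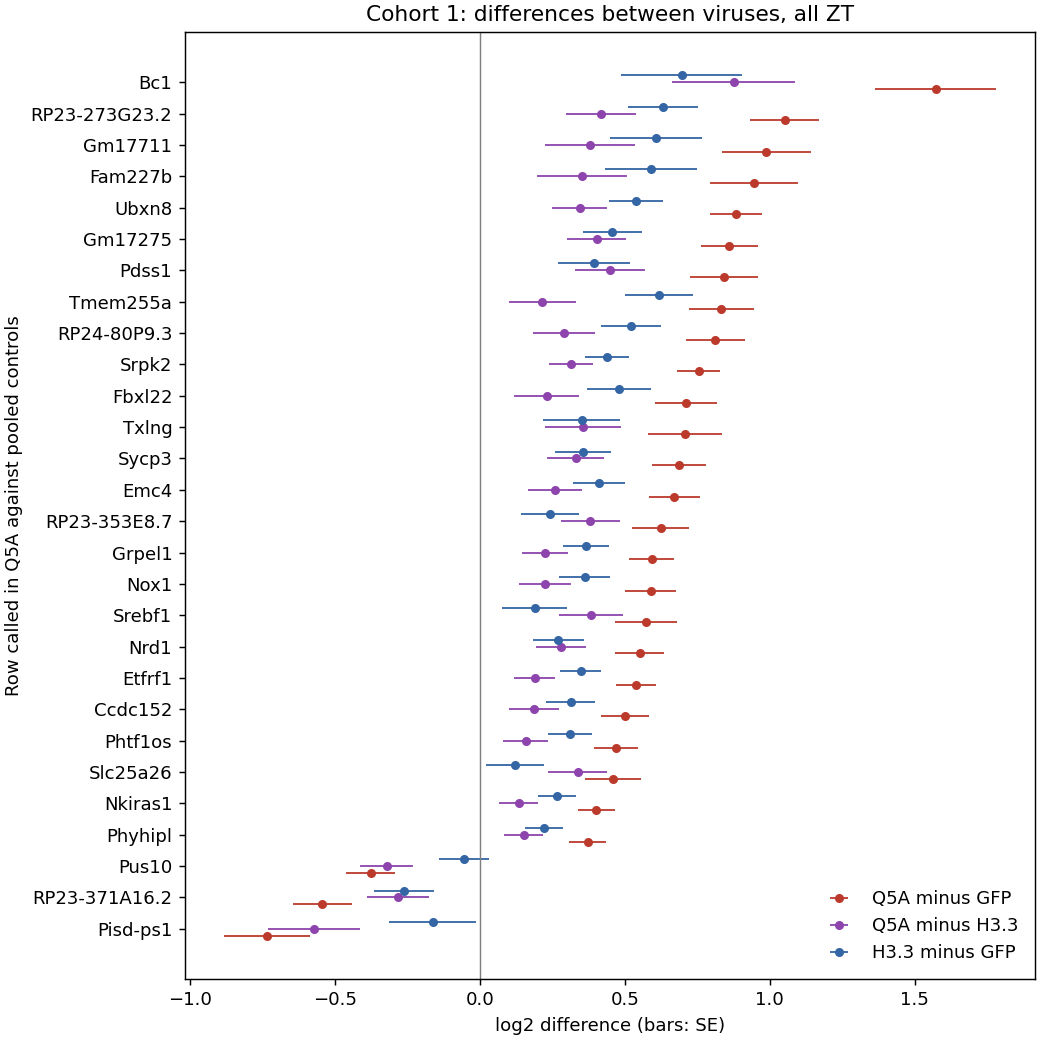
Log2 differences with SE (x axis) of the 28 rows that passed between Q5A and pooled controls (y axis), for Q5A minus GFP, Q5A minus H3.3 and H3.3 minus GFP in 1 fit of 78 libraries. For the 25 higher rows the points for Q5A minus GFP lie farthest right (median 0.69), and those for H3.3 minus GFP lie close to those for Q5A minus H3.3 (medians 0.37 and 0.32).

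The libraries were next divided into ZT0, ZT4 and ZT8 and ZT12, ZT16 and ZT20, with 39 libraries each, a division chosen after the data were seen. In ZT0 to ZT8, 651 of 10594 rows passed between Q5A and controls (242 higher and 409 lower, 6.14%), 793 between Q5A and GFP (7.49%), 29 between Q5A and H3.3 (0.274%) and 45 between H3.3 and GFP (0.425%). In ZT12 to ZT20, 1 of 10559 rows passed between Q5A and controls (0.00947%), which was Lig3, a DNA ligase, and 0 rows passed in each of the other contrasts with edgeR, where 617, 834 and 392 rows had an unadjusted p under 0.05 for Q5A against GFP, Q5A against H3.3 and H3.3 against GFP.

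Of the 25 higher rows, 22 passed between Q5A and controls in ZT0 to ZT8, with a median log2 difference of 0.64, and 0 passed in ZT12 to ZT20, with a median of 0.32. Against H3.3 alone, 4 of them passed in ZT0 to ZT8. These were Bc1 (1.41 ± 0.16, edgeR adjusted p = 2.18e-07), Srpk2 (0.45 ± 0.09, adjusted p = 0.00582), Gm17275 (0.55 ± 0.11, adjusted p = 0.00582) and Ubxn8 (0.52 ± 0.10, adjusted p = 0.0075). In ZT12 to ZT20 the differences from H3.3 were 0.16 ± 0.30 for Bc1 (edgeR adjusted p = 0.962) and 0.16 ± 0.12 for Srpk2 (adjusted p = 0.825). They were 0.25 ± 0.17 for Gm17275 (edgeR adjusted p = 0.795) and 0.15 ± 0.14 for Ubxn8 (adjusted p = 0.887). Between H3.3 and GFP, 15 of the 25 passed in ZT0 to ZT8, with a median of 0.53, beside 0 and a median of 0.25 in ZT12 to ZT20. The 25 rows were chosen in a fit that held these same libraries, so these counts and medians are a description.

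The difference between both sets of ZT was tested as an interaction. It passed for 257 of 11252 rows (2.28%). Of the 25 higher rows 21 had the larger difference in ZT0 to ZT8, beside 6120 of all 11252 rows tested, with a median of 0.30 beside 0.044. An unadjusted p under 0.05 was found for 10 of the 25 (40%), beside 23.7% of all rows tested. The 25 rows were chosen in the same libraries. Bc1 alone of the 25 passed: its Q5A difference was 1.91 ± 0.18 in ZT0 to ZT8 and 0.37 ± 0.25 in ZT12 to ZT20 (edgeR adjusted p = 0.780 for the second), and the difference of these was 1.54 ± 0.33 (edgeR adjusted p = 0.00161). For Srpk2 the interaction was 0.34 ± 0.15 (edgeR adjusted p = 0.136), with 0.70 in ZT0 to ZT8 and 0.36 in ZT12 to ZT20. An interaction of Q5A with ZT as a factor passed for 175 rows (1.56%), 0 of which were among the 28.

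**Figure D3:**
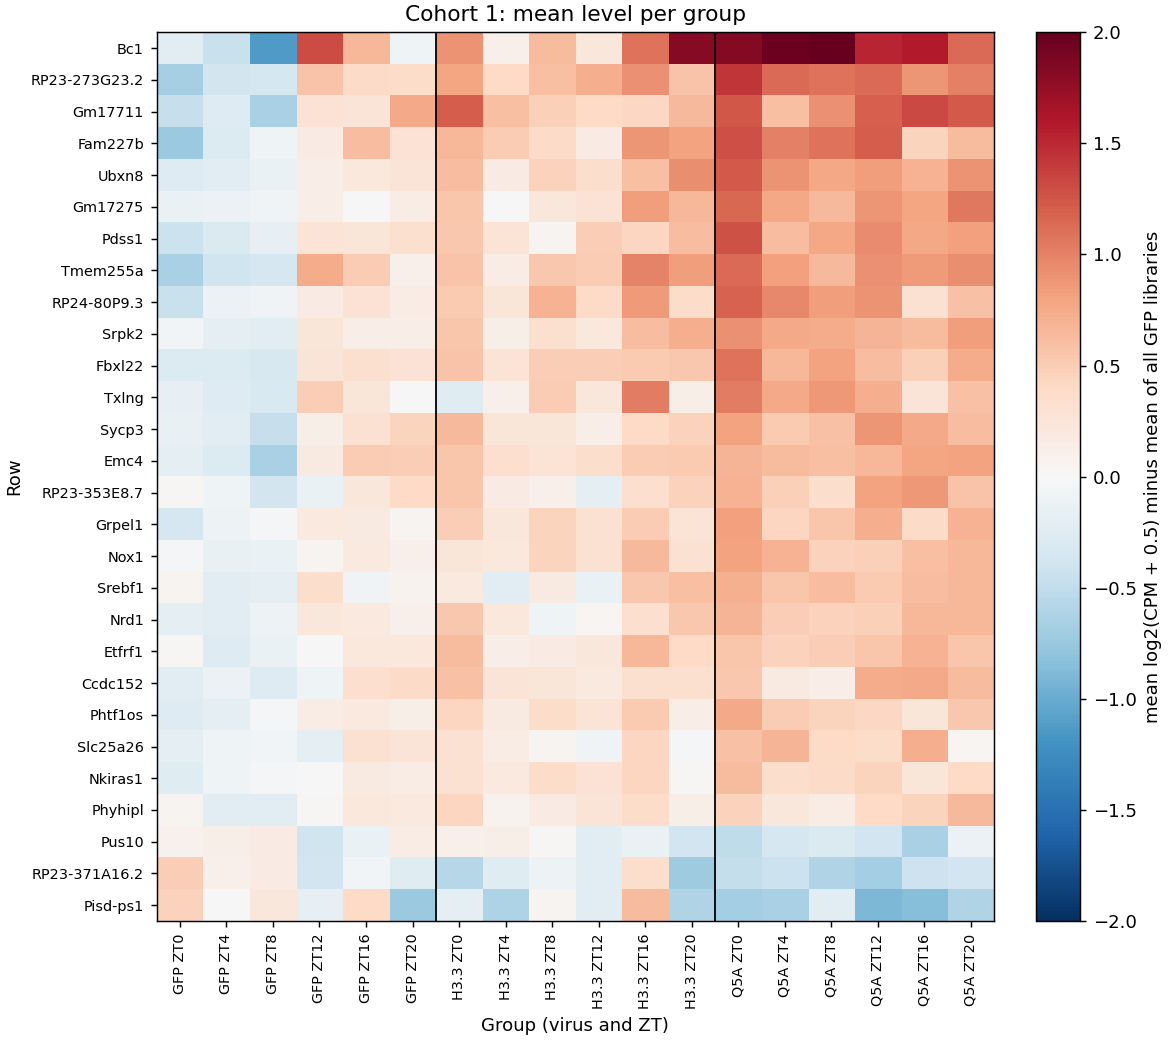
Mean log2(CPM + 0.5) of the 28 rows (y axis) in the 18 groups of virus and ZT (x axis), each minus the mean of the GFP libraries over all ZT, as colour. On the mean of the 25 higher rows, the GFP groups have medians of -0.35 to -0.22 at ZT0 to ZT8 and of 0.17 to 0.27 at ZT12 to ZT20, while the Q5A medians are at least 0.56.

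The 25 higher rows were also summarised in each library by their mean log2 level. This mean, relative to the GFP mean, had a lowest, median and highest value of -0.46, -0.023 and 0.57 in GFP, -0.19, 0.40 and 0.99 in H3.3, and 0.47, 0.71 and 1.08 in Q5A. At or above the lowest Q5A library lay 2 GFP libraries, both at ZT20, and 8 H3.3 libraries. The GFP groups had medians of -0.22, -0.30 and -0.35 at ZT0, ZT4 and ZT8 and of 0.25, 0.27 and 0.17 at ZT12, ZT16 and ZT20. The Q5A group medians lay between 0.56 and 0.97. These levels are a description, since the rows were chosen in the same libraries. Single rows departed from the mean: Bc1 was at its lowest GFP level, 51.3 CPM, in ZT20 replicate 1, where the mean was 0.48, and at its highest H3.3 level, 809.8 CPM, in ZT20 replicate 2, where the mean was 0.27.

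A measure of the libraries moved with the same groups. The share of reads that the aligner placed at several sites was 8.63% ± 0.458 (SD, n = 26) in Q5A and 8.04% ± 0.530 (n = 52) in controls (2-sided permutation test within ZT, p = 1e-05, the smallest that 100000 resamples can give, adjusted over 5 measures 5e-05). Its lowest, median and highest values were 6.81, 7.91 and 8.91% in GFP, 7.26, 8.27 and 8.89% in H3.3, and 8.05, 8.58 and 9.96% in Q5A. The GFP group medians ran from 7.20 to 7.44% at ZT0 to ZT8 and from 8.25 to 8.36% at ZT12 to ZT20. Total counts (adjusted p = 0.389), the share of uniquely placed reads in gene rows (adjusted p = 0.56), the share of the 10 most abundant rows (adjusted p = 0.389) and the share of ambiguous reads (adjusted p = 0.389) did not pass the same permutation test.

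With the share of reads placed at several sites as a covariate, a choice made after the data were seen, 0 of 11252 rows passed with edgeR, and 754 had an unadjusted p under 0.05. Srpk2 then had a log2 difference of 0.37 ± 0.09 (edgeR adjusted p = 0.310), Gm17275 of 0.45 ± 0.11 (adjusted p = 0.310), Ubxn8 of 0.36 ± 0.10 (adjusted p = 0.411) and Bc1 of 0.93 ± 0.22 (adjusted p = 0.310). Virus and this share moved together, and their parts in the result cannot be told apart by this fit. With the share of reads in gene rows as a covariate instead, 225 rows passed (82 higher and 143 lower), among them all 28.

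**Figure D4:**
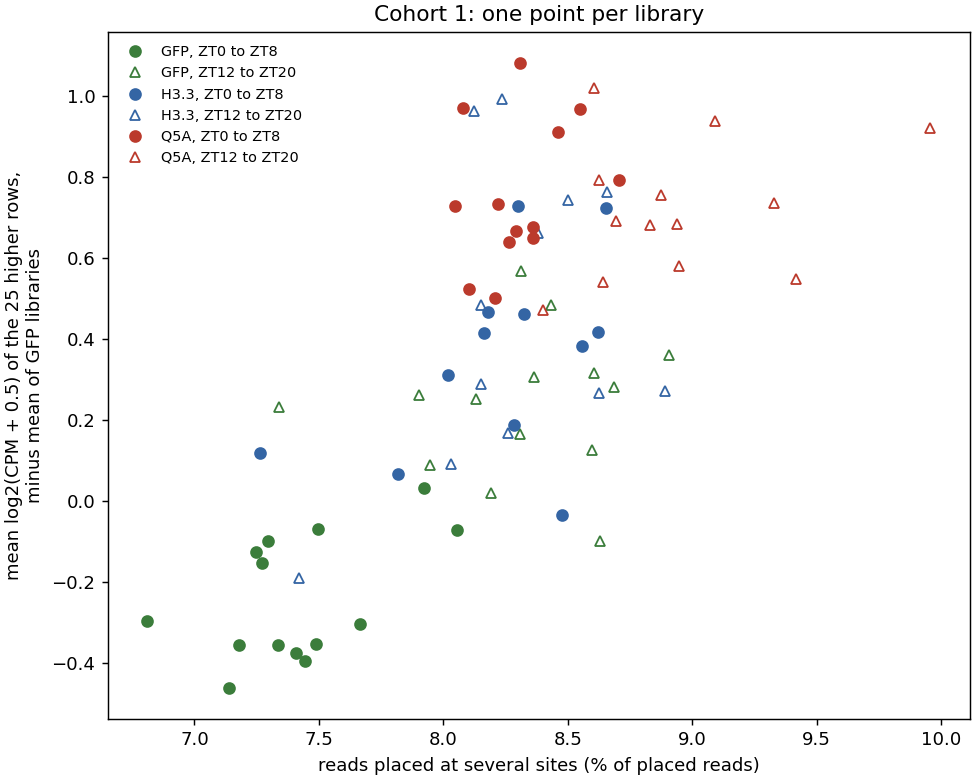
Share of reads placed at several sites (x axis, percent) against the mean log2 level of the 25 higher rows (y axis, relative to the GFP mean) in the 78 libraries, with filled points for ZT0 to ZT8 and open triangles for ZT12 to ZT20. Q5A libraries lie at 8.05% or above with levels of at least 0.47, and the lowest share (6.81%) and the lowest level (-0.46) are those of GFP libraries at ZT0. The GFP groups at ZT4 and ZT8 are also low, with median shares of 7.41 and 7.44% and median levels of -0.30 and -0.35. Single H3.3 libraries, and single GFP libraries at ZT12 to ZT20, are low in either measure.

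The position of the rows was then examined, since a row can hold reads of the other strand. Of the 28 rows 24 are in the annotation, and 21 of these (87.5%) share exon bases with an annotated gene on the other strand, beside 3851 of 8842 rows tested (43.6%). In 16 of the 21 (76.2%) the shared bases include the last exon end of the opposite gene, beside 1619 of 3851 (42.0%). Srpk2 shares 972 exon bases with Kmt2e, and Gm17275 shares 638 with H3f3a, which encodes H3.3. Further partners are Chpt1 for Sycp3 (660 bases), Tada2b, a subunit of a histone acetyltransferase complex, for Grpel1 (411), Osbpl9 for Nrd1 (633), Cstf2, an mRNA cleavage factor, for Nox1 (399), Rbbp7, a histone-binding protein, for Txlng (174), Zbtb33 for Tmem255a (474), Herc1 for Fbxl22 (317), Rsbn1 for Phtf1os (2101) and Selenop, a selenium carrier, for Ccdc152 (439). The rows Ubxn8, Bc1 and Pisd-ps1 share no exon base with a gene on the other strand. The nearest such gene lies 145 bases from Ubxn8 (Ppp2cb, a catalytic subunit of protein phosphatase 2A).

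The rows named for the opposite genes given here did not pass the test or were not tested. Kmt2e had a log2 difference of 0.11 ± 0.07 (edgeR adjusted p = 0.604), with means of 173 ± 47.1 CPM (SD, n = 28) in GFP, 196 ± 35.2 (n = 24) in H3.3 and 197 ± 34.2 (n = 26) in Q5A. Fam13c, opposite Phyhipl over 1055 bases, had 0.22 ± 0.06 (edgeR adjusted p = 0.117). H3f3a had a median of 4 reads and was not tested, with mean levels of 3.14 CPM in GFP, 2.98 in H3.3 and 4.47 in Q5A. Which strand the reads in these rows came from was not tested.

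Cohorts 2 and 3 provided 32 libraries that the comparison had not used (13 Q5A, 15 H3.3 and 4 GFP). Between Q5A and controls there, 0 of 13265 rows passed with edgeR (0.0%) and 175 (1.32%) had an unadjusted p under 0.05, while 23 passed with DESeq2, 0 of which were among the 28. The rows of smallest p were Stard3nl (log2 difference 1.18 ± 0.32), Ankrd37 (-0.94 ± 0.26) and Mylk, a myosin kinase (-0.60 ± 0.19), each with an edgeR adjusted p of 1.00. Of the 25 rows that were higher in cohort 1, 11 had a positive log2 difference, beside 50.7% of all rows tested, with a median of -0.029, a range of -0.25 to 0.18 and 0 rows at an unadjusted p under 0.05. The 3 lower rows had a median of -0.0077. With H3.3 libraries alone as controls, chosen after the data were seen, 11 of the 25 were positive and the median was -0.034. The median of the same rows between Q5A and H3.3 in cohort 1, where they were chosen, was 0.32. The pooled controls of cohort 1 held a larger part of GFP libraries than those of cohorts 2 and 3.

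Srpk2 had mean levels of 101 ± 15.2 CPM (SD, n = 13) in Q5A and 89.0 ± 13.5 (n = 19) in controls of cohorts 2 and 3, and a log2 difference of 0.18 ± 0.11. Bc1 had 426 ± 326 CPM in Q5A and 495 ± 429 in controls, with a difference of -0.10 ± 0.23. Gm17275 and Ubxn8 differed by 0.02 ± 0.17 and 0.07 ± 0.20. None of these 4 rows passed the test in cohorts 2 and 3, and none had an unadjusted p under 0.05.

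The difference of the Q5A effect between cohort 1 and cohorts 2 and 3 was tested directly over 13554 rows. None passed with edgeR (0 rows, 0.0%), 416 had an unadjusted p under 0.05 (3.07%), and 1 passed with DESeq2. The rows of smallest p were Nr5a1, a nuclear receptor (difference of effects 3.50 ± 0.85), Ankrd37 (1.13 ± 0.28) and Myoc (3.99 ± 1.04), each with an edgeR adjusted p of 0.492. Bc1 had a difference of effects of 1.24 ± 0.32 (edgeR unadjusted p = 0.000205, adjusted p = 0.492) and Srpk2 one of 0.35 ± 0.13 (unadjusted p = 0.00941, adjusted p = 1.00). Of the 25 rows 19 had an unadjusted p under 0.05, which rests in part on the cohort 1 values that chose them.

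**Figure D5:**
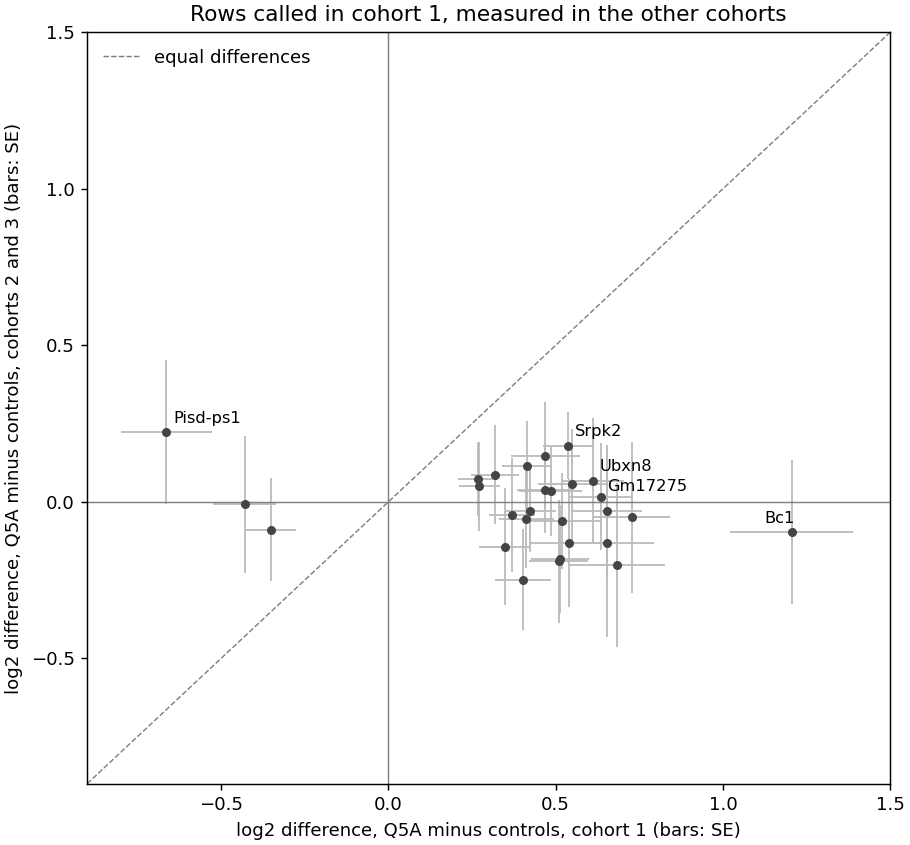
Log2 difference of Q5A minus controls with SE for the 28 rows in cohort 1 (x axis) and in cohorts 2 and 3 (y axis), with a dashed line of equal differences. In cohorts 2 and 3 the 25 higher rows lie between -0.25 and 0.18, around a median of -0.029, while their cohort 1 median is 0.51. The rows were chosen in cohort 1. The controls are unlike, with 28 GFP and 24 H3.3 libraries in cohort 1 and 4 GFP and 15 H3.3 in cohorts 2 and 3.

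Lists of genes were described by their counts and medians, beside the median of 0.0045 over all rows tested. Of all rows tested, 51.2% were above 0. The members of a list were measured in the same libraries, so their signs are not independent of each other. Of the H3.3 genes, chaperones and the monoaminylation enzyme, 9 of 13 were tested, 0 passed, 5 were above and 4 below 0, and the median log2 difference was 0.0075. H3f3b, the second H3.3 gene, had 16.2 ± 4.49 CPM (SD, n = 28) in GFP, 16.6 ± 5.65 (n = 24) in H3.3 and 18.1 ± 4.66 (n = 26) in Q5A, a difference of 0.15 ± 0.10 (edgeR adjusted p = 0.610). Tgm2, the transglutaminase that attaches monoamines to histones, and Wdr5, a reader of H3 tails, had medians of 3.5 and 3 reads and were not tested. Of 22 genes of H3K4 methyltransferase complexes and demethylases 19 were tested, 0 passed, 14 were above and 5 below 0, and the median was 0.11. Setd1b, an H3K4 methyltransferase, had 0.26 ± 0.10 (edgeR adjusted p = 0.309), and Kdm1b 0.20 ± 0.09 (adjusted p = 0.414).

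Of 21 tested SR protein kinases and splicing factors 1 passed, Srpk2 itself, and the median was 0.03, with Srpk3 at -0.34 ± 0.12 (edgeR adjusted p = 0.276). Of 11 tested noncoding RNAs of neurons and nuclei 1 passed, Bc1, with 4 above and 7 below 0 and a median of -0.11. Meg3 had -0.29 ± 0.11 (edgeR adjusted p = 0.287) and Snhg14 had 0.19 ± 0.07 (adjusted p = 0.261). None of 16 tested clock genes passed (0 rows), with a median of 0.08, and Dbp, a clock output factor, had 0.23 ± 0.08 (edgeR adjusted p = 0.276). The Arntl and Per2 rows had medians of 6 reads and Nr1d1 one of 2577, and Dbp shares 539 exon bases with Sphk2 on the other strand. Such rows may hold reads of the other strand, so they may not measure the named genes.

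In the lists of cell types 0 rows passed. All 11 astrocyte markers were above 0 (median 0.17), with Gfap at 0.73 ± 0.25 (edgeR adjusted p = 0.237) and Aqp4, a water channel, at 0.53 ± 0.22 (adjusted p = 0.368). The summed level of the astrocyte list had medians of 445 CPM in GFP, 429 in H3.3 and 545 in Q5A, and its part in the differences above was not tested. The 5 tested histamine neuron genes had a median of 0.12, and Slc18a2, the vesicular monoamine transporter, had 0.15 ± 0.10 (edgeR adjusted p = 0.642). The 14 tested hypothalamic peptides had a median of 0.16, the 13 pan-neuronal genes 0.07, the 16 oligodendrocyte genes 0.07, the 8 microglia genes -0.03, the 4 genes of vessels and meninges 0.07 and the 4 pituitary genes -0.02. The 9 tested striatal markers had a median of 0.23 and a summed level of 80.4 to 777 CPM in GFP, 78.8 to 951 in H3.3 and 87.5 to 1436 in Q5A, so that single libraries of each virus stood high. Markers of cortex and hippocampus had a median of 0.11 (5 tested, Nrgn 0.55 ± 0.20) and thalamic markers -0.17 (6 tested, Prkcd -0.99 ± 0.42). The single tested gene of the choroid plexus and ependyma list, Foxj1, had -0.20. In bulk tissue fewer cells of a type and less RNA per cell cannot be told apart. The marker rows can also hold reads of the other strand, and some held few reads, such as Slc17a7 with a median of 4.5. They may therefore not measure the named genes.

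The 5 tested genes of interferon response and antigen presentation were all below 0 (median -0.24), with H2-K1 at -0.52 ± 0.25 (edgeR adjusted p = 0.446). The 4 tested immediate early genes had a median of -0.03, and the 7 tested heat shock and cold-inducible genes had a median of 0.10, with Dnaja1 at 0.15 ± 0.06 (edgeR adjusted p = 0.317). In both lists 0 rows passed.

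Rows with the pattern most like Srpk2, by the Pearson correlation of log2 CPM over the 78 libraries after removal of ZT and arm (Q5A or pooled controls), were Ubxn8 (r = 0.86), Gdi2 and Gm26617 (0.78 each), and Tmem255a and AC118698.3 (0.76 each). Those most like Bc1 were Ttc3 (0.76), Eif4b (0.74), and Rtn3, Pgrmc1 and Maged1 (0.72 each). All these points share library, depth and normalization, and the values are a description. The difference between H3.3 and GFP was not removed. Srpk2, Ubxn8, Gm26617, Tmem255a and AC118698.3 all passed the test between H3.3 and GFP, so their correlations hold that difference.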

How the data were processed

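RNA-seq was done on TMN tissue, 1 library per animal. Per the study's methods, polyadenylated RNA was made into libraries with a stranded Illumina ligation kit, and reads were aligned to GRCm38 with STAR 2.7.11b. Exonic reads were counted per gene name with HTSeq 2.0.5 in union mode with the stranded option set to yes. The authors used DESeq2 1.44.0 to normalize counts and to compare GFP with H3.3 at each ZT (false discovery rate under 0.01). They tested rhythm, also in Q5A, with JTKcycle at an adjusted p under 0.05. The deposited values are raw counts, 54087 gene rows and 5 lines of unassigned reads per library. The 5 lines were kept out of library sizes and tests and held 95.6 to 96.8% of the reads of the cohort 1 libraries. Groups were read from the sample labels, and 18 files mapped to no sample were not used. A pair of libraries in cohort 2 held practically the same counts, with 3 gene rows that differed, which is less than sampling noise, and was counted as 1 library, which left 110.

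Rows were kept by filterByExpr (at least 10 counts, total at least 15) and scaled by TMM. The counts were tested in R 4.3.3 by the quasi-likelihood F test of edgeR 4.0.16 with ZT as a factor. Benjamini-Hochberg adjustment ran over all rows tested, at an adjusted p under 0.01 as in the study's comparison of GFP with H3.3. SE values are the log2 difference divided by the square root of F. CPM values use TMM library sizes, and log2 levels add 0.5 CPM. Library measures were compared by permutation of the arm within ZT (100000 resamples) in Python 3.11.15 with scipy 1.17.1; the shares of reads placed at several sites and of ambiguous reads were added after the data were seen, and a planned mitochondrial share was void, since those rows held 0 reads. Overlaps used bedtools 2.31.1 and GENCODE gene models of GRCm38, and the Bc1 sequence was read from the GENCODE transcripts of that build. DESeq2 1.42.0, other filters, normalizations and sets of libraries were tried as alternatives. In data simulated for Q5A against controls in cohort 1 over 11252 rows, 63 of 100 rows changed 1.5-fold and 93 of 100 changed 2-fold were recovered, with 0 false calls. The simulated counts were independent between rows, and GFP and H3.3 were 1 group. No factor was shared by the rows of a library, so false calls from such a factor were not tested.

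The named rows were the 25 of smallest p among those past the threshold (all 28 are given, 1 clone-named row without its name), the genes of H3.3 and histamine, up to 3 members of each list by p, the rows of smallest p in the other comparisons, the opposite-strand partners, and the 5 rows most like Srpk2 or Bc1. The rows and lists were chosen with earlier results of these data known. Replicate numbers did not pair libraries.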

Additional observations from a re-analysis of the deposited data

Results flagged for a closer look

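In groups of 4 or 5 libraries, 12 of 126 groups examined (9.52%) held a library far from the others, against about 1 in 20 given by chance. For Srpk2 this was Q5A ZT16 replicate 3 (242 CPM). For Gm17275 these were GFP ZT8 replicate 2 (86.2 CPM), GFP ZT12 replicate 3 (240.1 CPM) and GFP ZT20 replicate 1 (189.9 CPM). For Ubxn8 it was GFP ZT8 replicate 2 (140.4 CPM). For Bc1 these were GFP ZT4 replicate 4 (61.9 CPM), H3.3 ZT8 replicate 4 (148 CPM) and H3.3 ZT20 replicate 2 (809.8 CPM). The share of reads placed at several sites stood out in H3.3 ZT0 replicate 2 (8.65%), and the total count in GFP ZT0 replicate 3 (926778), GFP ZT4 replicate 2 (1341591) and GFP ZT8 replicate 5 (1207237).

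The Q5A difference of Bc1 was larger by 1.54 on the log2 scale in ZT0 to ZT8 than in ZT12 to ZT20, by the interaction test given above.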

How the results depend on the processing

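The 28 rows between Q5A and controls rest on all libraries together. DESeq2 called 49 rows, an adjusted p under 0.05 called 61, and the share of reads in gene rows as a covariate gave 225, with all 28 kept in each. Without ZT0, ZT4, ZT8 or ZT12 the count was 14, 12, 11 or 11, and with all 3 cohorts 12, of which 9 were shared. ZT0 to ZT8 alone gave 651 (24 shared), ZT12 to ZT20 alone 1 (0 shared), and the share of reads placed at several sites as a covariate 0. Leaving out all libraries of a replicate number gave 11 to 16. Over the 78 fits without 1 library the count ran from 17, without Q5A ZT0 replicate 3 and also without Q5A ZT4 replicate 3, to 40, without H3.3 ZT16 replicate 4, and 17 of the 28 rows passed in all of them. Q5A against GFP gave 81 rows, 157 with no filter on low counts, 153 at an adjusted p under 0.05, and 43 to 63 without a replicate number. Q5A against H3.3 gave 0, and 96 with no filter. H3.3 against GFP gave 12, 20 with DESeq2, 105 with no filter and 0 to 9 without a replicate number. In cohorts 2 and 3 the count was 0, 23 with DESeq2, 6 with no filter and 0 to 6 without a replicate number. The cohort interaction gave 0, 1 with DESeq2 and 2 with no filter. With the share of reads placed at several sites as a covariate the log2 difference turned sign for Kmt2e (-0.018), Meg3 (0.0031) and Aqp4 (-0.032), and for H3f3b (-0.042) in ZT12 to ZT20 alone. The cause of these changes was not tested.

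The replicate numbers did not pair the libraries (72 same-number pairs, median r of -0.01, 18 over 0.1). With replicate block, Q5A against controls gave 23 rows (22 shared) and H3.3 against GFP gave 7. The fits with fewer libraries have less power. Rows such as Hdc, H3f3a, Tgm2 and Wdr5 had medians of 3 to 4 reads and could not be tested. Between 3.49 and 4.82% of the uniquely placed reads of cohort 1 fell in gene rows, and why these rows held few reads was not tested.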
